A study of Mus musculus with 14 samples.

Results

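The neuronal intermediate filament genes Nefl, Nefm, Nefh, Ina and Prph were followed through the Atoh1 lineage of the mouse hindbrain, in single-cell RNA-seq libraries of 3 stages and 2 genotypes. They were chosen by symbol, and they are 5 of the 31054 genes that the count tables list. Each had at least 1 UMI (a counted RNA molecule) in all 14 libraries. Controls were Atoh1-Cre/+; Rosa lsl-tdTomato/+ mice on C57BL/6J, in which Cre replaces the coding region of 1 Atoh1 copy and the Cre-dependent TdTomato reporter marks cells that have used the Atoh1 promoter. The hypomorphs, called Atoh1S193A/-, were Atoh1 Cre/S193A; Rosa lsl-tdTomato/+, with the same null copy and the S193A substitution on the other. Hindbrains of 3 embryos of each genotype were dissociated at E14.5 and at E18.5, a mutant beside a littermate control, and 1 library was made from the TdTom+ cells of each embryo. At P5 each of 2 libraries came from its own pool of the pontine nuclei (PN) of 11 to 13 control pups, sorted likewise, and there was no mutant. TdTomato stays on in all descendants of cells that once expressed Cre, so the sort holds cerebellar and caudal hindbrain lineages as well as the PN.

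Intermediate filaments fill the axon and set its calibre. Nefl, the light chain, can form filaments with the medium chain Nefm, the heavy chain Nefh and with α-internexin, the product of Ina. Prph encodes peripherin, a filament protein best known from neurons that send axons out of the central nervous system. In textbook accounts Ina comes on early in newborn neurons, Nefl and Nefm follow, and Nefh comes on late, as axons mature. PN neurons arise from the rhombic lip, migrate along the brain surface to the ventral pons and send mossy fibres to the cerebellum.

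After removal of cells with under 1000 genes or with 5% or more mitochondrial UMIs, and of likely doublets, 80250 of 150188 barcodes remained, 3248 to 8726 per library. The libraries kept 59993081 to 185029057 UMIs, with medians of 12010.5 to 20913 UMIs per cell. Any 2 libraries shared 3 to 22 cell barcodes, at most 0.346% of the smaller library. The headers of 2 E14.5 control libraries (replicates 1 and 2) name Cell Ranger 3.1.0, and those of the other 12 name 5.0.1. The S193A substitution could not be checked, since 3′ tags do not read it. The level of Atoh1 itself was 55.0 to 137 CPM (UMIs of the gene per 1000000 UMIs) in E14.5 controls and 86.2 to 144 in E14.5 mutants, so the groups overlapped. Within each replicate number the mutant was higher: 137 and 144, 55.0 and 86.2, and 57.5 and 100 CPM in control and mutant. The same held at E18.5, at 34.4 and 54.0, 35.4 and 45.9, and 28.6 and 31.7 CPM. This difference was not tested. Cells were grouped into classes by clustering, with the filament genes left out of it, and named from fixed marker genes. Such a class is called X-like, differences between classes are described with no test, and class names rebuilt here may not hold the same cells as those of the study. The P5 sort also held 937 microglia-like cells, which are used below as background, and 160 vascular-like cells.

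On GRCm38, the build called mm10, Nefl (ENSMUSG00000022055) lies on chr14:68083863-68089095 (plus strand, 4 exons). Its neighbour Nefm (ENSMUSG00000022054) has its first-numbered transcript on chr14:68119283-68124846 (minus strand, 3 exons), 30187 bases away. A second annotated Nefm transcript reaches across all 5233 bases of Nefl on the opposite strand. The study counted with the default parameters of Cell Ranger, and how far reads of these neighbours were kept apart was not tested. Nefh (ENSMUSG00000020396) lies on chr11:4938754-4948064 (minus strand, 4 exons), Ina (ENSMUSG00000034336) on chr19:47014698-47025327 (plus strand, 3 exons) and Prph (ENSMUSG00000023484) on chr15:99055174-99058978 (plus strand, 9 exons in its first-numbered transcript). Their coding parts differ in length: 1629 bases for Nefl, 2544 for Nefm, 3270 for Nefh, 1503 for Ina and 1425 for Prph.

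The 100 bases just before the RefSeq start sites of Prph and Ina (GRCm38.p6) are printed, since 2 of the 5 members, these ones, matched the promoter table used here. Capitals mark a TATA-like hexamer and a GC box read on the minus strand.
Prph, chr15:99055074-99055173, plus strand: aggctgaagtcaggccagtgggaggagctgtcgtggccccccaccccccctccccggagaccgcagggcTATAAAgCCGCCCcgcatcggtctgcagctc
Ina, chr19:47014581-47014680, plus strand: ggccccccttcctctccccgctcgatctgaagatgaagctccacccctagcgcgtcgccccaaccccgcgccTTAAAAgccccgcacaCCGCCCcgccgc
The Prph window held TATAAA 31 bases before the start, and the Ina window held TTAAAA 28 bases before it, the latter hexamer being searched for after the sequence had been seen. Both windows held GGGCGG on the minus strand, at 24 and 12 bases before the start. Among 32851 promoter windows of the same length, counting both strands, 5.56% held TATAAA, 6.32% held TTAAAA and 24.7% held GGGCGG. These matches are letters in a window, not tested binding sites.

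In control PN-like cells, Ina led, Nefl and Nefm followed in the later migrating cells, and Nefh stayed low until P5, while Prph differed from state to state. E14.5 PN-like cells (3318 in the 3 controls) fell into progenitor-like, intermediate progenitor-like, migrating neuron-1-like, migrating neuron-2-like and differentiated neuron-like states, besides 2 small unnamed subclusters. Ina stood at 18.3, 40.2 and 29.1 CPM in the progenitor-like cells of control replicates 1 to 3. In migrating neuron-1-like cells it reached 122, 330 and 218 CPM, and in differentiated neuron-like cells 2340, 3155 and 2063 CPM. The 3 states did not overlap, and a UMI of Ina was seen in 10.8%, 47.6% and 100% of their cells after every cell had been thinned to 5000 UMIs, with 2784 shallower cells of all libraries left out (42.5%, 72.5% and 100% unthinned). The glia-like cells of these libraries, taken as background, gave 19.3% thinned and 39.5% unthinned, so the progenitor-like share is not above background. Median depth was 13113 to 15985 UMIs per library in the glia-like cells and 17371 to 20290 in the differentiated neuron-like cells.

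Nefl, the core subunit of neurofilaments, was at 19.7, 14.52 and 20.5 CPM in progenitor-like cells and at 33.2, 51.2 and 57.6 CPM in migrating neuron-1-like cells. It stood at 506, 454 and 471 CPM in migrating neuron-2-like and at 488, 773 and 589 CPM in differentiated neuron-like cells. The step between the migrating states thus took the mean from 47.3 to 477 CPM, and the last states overlapped. Nefm was higher in migrating neuron-2-like cells, where the 3 controls had 244, 284 and 263 CPM, than in differentiated neuron-like cells, at 113, 213 and 144 CPM. Those values did not overlap, although the states were defined by expression and the difference is a description. The migrating neuron-2-like state pools subclusters of both genotypes, and 1 of them (473 cells) had Nefm, Nefl and Lhx2 among its leading genes. Low Lhx2 was among the criteria for PN-like clusters, and how far the difference in Nefm rests on that subcluster was not tested. In the thinned cells, UMIs of Nefl, Nefm and Ina occurred together in 43.0% of the migrating neuron-2-like and 37.6% of the differentiated neuron-like cells, and in 2.24% of the migrating neuron-1-like cells. Nefh, the heavy chain, did not pass 2.39 CPM in any E14.5 PN-like state of a control library. Prph was at 8.77, 9.95 and 20.5 CPM in the progenitor-like cells, and did not pass 4.92 CPM in the migrating and differentiated states. Those progenitor-like values rest on 12, 24 and 31 UMIs. In intermediate progenitor-like cells Prph was at 12.4 CPM in control 1 (9 UMIs), above that library's progenitor-like cells, and had 0 and 2 UMIs in controls 2 and 3.

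**Figure D1:**
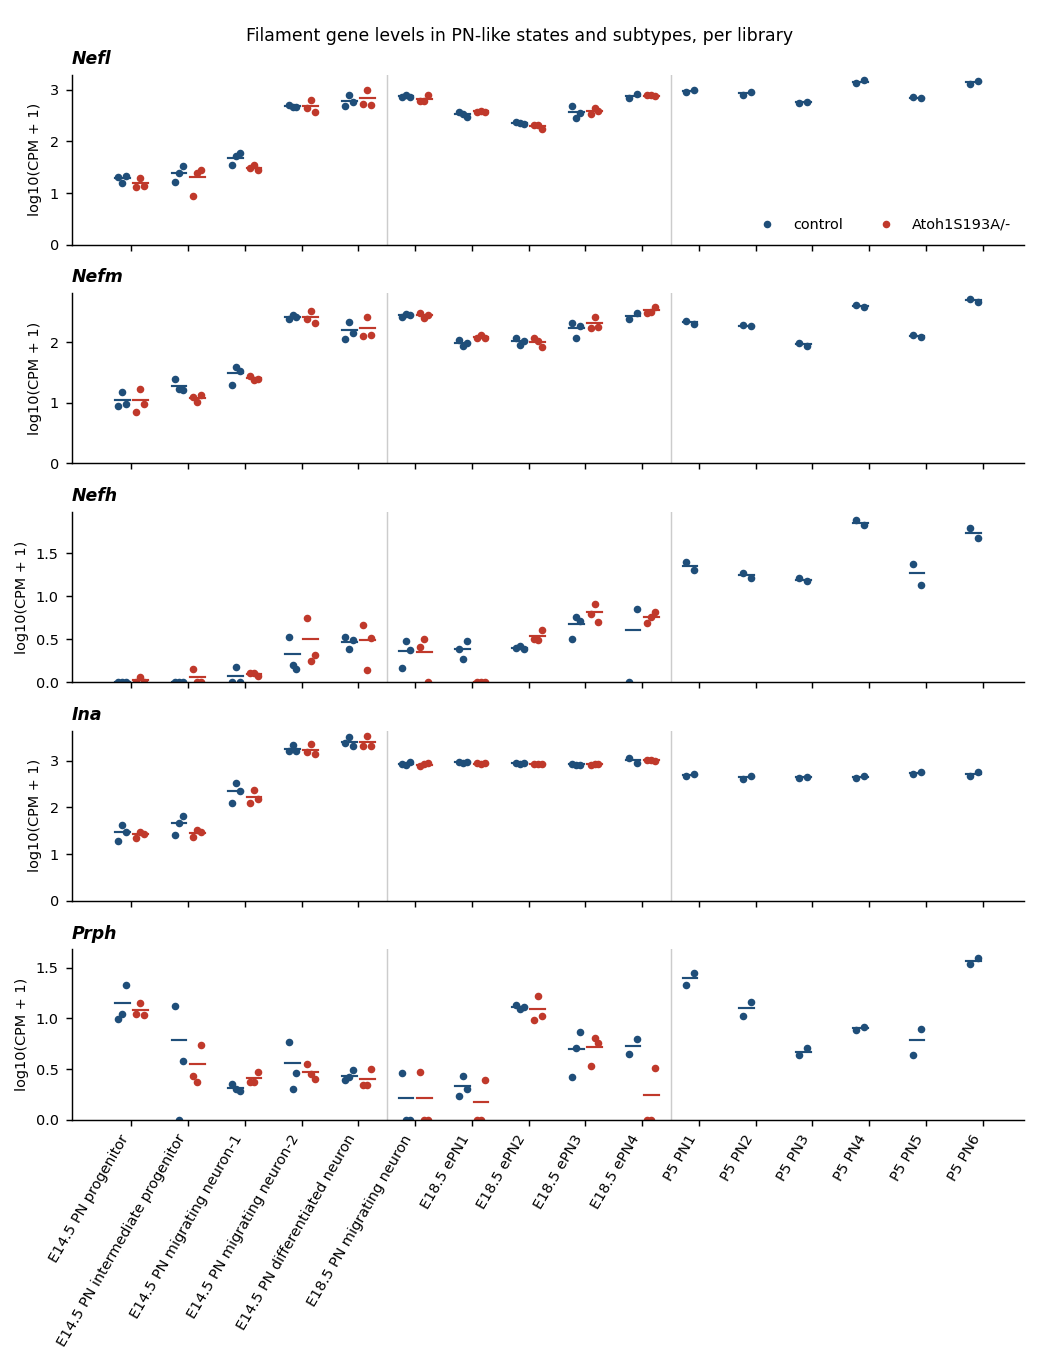
Level of each filament gene as log10(CPM + 1) in the PN-like states and subtypes of the 3 stages, 1 point per library, controls in blue and Atoh1S193A/- in red. Ina climbs through the E14.5 states to the differentiated neuron-like cells. Among the E14.5 states Nefm is highest in migrating neuron-2-like cells, which pool several subclusters, and the points of Nefh at P5 sit above all embryonic ones.

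At E18.5 the PN-like cells (1732 in controls) were mostly migrating neuron-like cells and 4 kinds of early PN neurons, ePN1-like to ePN4-like. Intermediate progenitor-like cells (14 and 12 in controls 1 and 2) and 3 unnamed subclusters made up the rest. Nefl was higher in migrating neuron-like cells, at 718, 781 and 728 CPM, than in ePN1-like, ePN2-like and ePN3-like cells, whose means were 332, 226 and 368 CPM. The ePN4-like cells averaged 760 CPM over the 2 control libraries that held at least 10 of them (59 cells). Nefm was likewise higher in the migrating cells, at 266, 296 and 288 CPM. These migrating neuron-like cells pool subclusters of both genotypes, the largest of which (272 cells) was led by Cadps2, Pimreg, Fbxl7 and Gad2. In a finer clustering a migrating neuron-like cluster with Gad2 (202 cells) had Nefl itself among its leading genes. How far the higher Nefl rests on such a subset was not tested. Ina was nearly level, with means of 825 to 1030 CPM over these 5 classes. Prph was at 12.1 ± 0.6 CPM (SD, n = 3 libraries) in ePN2-like cells, which carry Ephb1 and Sst among their fixed markers. It was seen in 6.65% of thinned ePN2-like cells (17.1% unthinned), against 1.19% of the E18.5 glia-like cells (3.69% unthinned).

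Within differentiated PN-like neurons of controls, Nefl and Ina fell between E14.5 and E18.5. Nefl was at 488, 773 and 589 CPM at E14.5 and at 370, 286 and 326 CPM in the summed ePN1- to ePN4-like cells at E18.5, without overlap. Ina was at 2340, 3155 and 2063 CPM and then at 895, 860 and 887 CPM. Both fell (edgeR quasi-likelihood test on UMIs summed per library, called at an adjusted p below 0.05 and an absolute log2 change over 0.25). The log2 change was -1.03 ± 0.17 (SE) for Nefl (adjusted p = 0.000417) and -1.63 ± 0.14 for Ina (adjusted p = 9.17e-06). Nefm was at 113, 213 and 144 CPM and then at 150, 104 and 142 CPM, and its change of -0.36 ± 0.21 was not called. The background was wide: 58.1% of the 10219 genes tested were called, 28.3% lower. The scarce members were kept out by a filter that asks for a UMI in 10% of the cells of a group. Without it Prph, at 1.47 to 2.10 CPM and then at 5.60 to 7.42 CPM, was called higher (log2 1.71 ± 0.31, adjusted p = 2.55e-07) and Nefh, at 1.41 to 2.39 and 1.62 to 2.73 CPM, was not. Nefm was also called lower in that edgeR fit (log2 -0.38 ± 0.11, adjusted p = 0.00174), and likewise without E14.5 control 1 (log2 -0.57). The fit with no filter called 7677 of 20572 genes.

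Among 30 intermediate filament genes and partners (other filament proteins, linkers, motors and kinases), 22 were tested in this comparison, of which 10 rose and 6 fell, with a median log2 change of 0.10. Lmna, the A-type nuclear lamin, rose by 2.85 ± 0.27 on the log2 scale, and Vim, the filament protein of progenitors and glia, fell by 1.99 ± 0.18. Arhgef28, which can bind neurofilament RNA, rose by 1.56 ± 0.24, and the motor genes Myo5a and Dync1h1 rose by 1.05 ± 0.12 and 0.97 ± 0.17. Of 8 neuron maturation genes given for comparison, 5 rose and 1 fell. Ina and Nefl were thus lower at E18.5 in cells in which Rbfox3, the NeuN gene, was higher by 0.69 ± 0.11.

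Between E18.5 and P5 differentiated PN-like neurons gained Nefl and Nefm and lost Ina, and Nefh and Prph were higher at P5. The latter pair passed the 10% filter through P5 alone, the stage where they are high, so their calls were favoured by it, and they are given as a description. Nefh was at 1.62, 2.58 and 2.73 CPM in the 3 E18.5 control libraries and at 43.8 and 34.6 CPM in the 2 of P5. The fitted difference was 16.9-fold (log2 4.08 ± 0.19, and 4.15 ± 0.18 in a fit with no filter). Nefl was at 1026 and 1106 CPM at P5, 3.41-fold higher (log2 1.77 ± 0.11, adjusted p = 6.48e-08), and no library of one stage overlapped the other. Nefm, at 294 and 258 CPM, was 2.17-fold higher (log2 1.12 ± 0.13, adjusted p = 1.05e-05). Prph, at 13.1 and 15.9 CPM, was 2.28-fold higher (log2 1.19 ± 0.17, and 1.27 ± 0.16 with no filter). Ina, the early subunit, went the other way, at 444 and 505 CPM (1.78-fold lower, log2 -0.83 ± 0.09, adjusted p = 1.12e-05). Of the 11087 genes tested 60.5% were called, 29.9% higher and 30.6% lower, so being called is the common case here. Stage and dissection (hindbrain or PN) cannot be told apart in this comparison, and P5 libraries came from pooled pups. Unnamed clusters of both stages were left out of these sums.

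The filament partners moved both ways in the same comparison, with 12 of 26 tested higher and 7 lower (median log2 change 0.25). Hspb1, a small heat shock protein, rose by 4.17 ± 0.24 and Plec, the linker plectin, by 2.21 ± 0.16. The progenitor filament genes Nes and Vim were 3.46-fold and 2.83-fold lower, and Lmnb1, a B-type lamin, was 3.35-fold lower. Of the maturation genes, 6 of 8 rose and none fell by this test.

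Within the P5 pontine nuclei the 6 named subtypes differed in every member but Ina. They do not cover all P5 neurons. An unnamed cluster led by Gad2 (1330 cells) scored best for PN2-like. Another, with Sncg and Hspb1 among its leading genes (807 cells), scored best for PN4-like. Both are left out here, and the PN2-like cells numbered 315. Nefh was at 76.1 and 65.8 CPM in PN4-like cells of libraries 1 and 2 and at 60.9 and 46.3 CPM in PN6-like cells. It was at 23.9 and 19.1 CPM in PN1-like, 17.8 and 15.5 in PN2-like, 15.2 and 13.9 in PN3-like, and 22.6 and 12.4 in PN5-like cells. The PN4-like and PN6-like cells thus stood apart from the other 4 subtypes. Among those, PN1-like, PN2-like and PN3-like cells kept that order without overlap, and PN5-like cells overlapped each of them. PN4-like was above PN6-like in both libraries. After thinning, a UMI of Nefh was seen in 23.8% of PN4-like and 16.6% of PN6-like cells (72.9% and 66.7% unthinned), against 5.56% to 8.71% in the other subtypes. In microglia-like cells the share was 1.19% (2.96% unthinned). The PN4-like and PN6-like cells were the deepest, at medians of 36709.5 to 49905 UMIs per library against 24910.5 to 30531 in the other PN-like subtypes and 10322 and 10991 in the microglia-like cells. CPM and the thinned shares gave the same top subtypes.

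Nefl followed the same split, at 1353 and 1517 CPM in PN4-like and 1304 and 1469 CPM in PN6-like cells. It was lowest in PN3-like cells, at 558 and 572 CPM. Nefm was highest in PN6-like cells, at 523 and 470 CPM, next in PN4-like cells, at 411 and 380 CPM, and lowest in PN3-like cells, at 97.1 and 87.1 CPM. Ina ran from 409 to 572 CPM over all 6 subtypes and both libraries, without a subtype that stood apart from the rest. Prph had another order: 33.3 and 39.1 CPM in PN6-like cells, 20.7 and 27.3 CPM in PN1-like cells, and at most 13.5 CPM in the remaining 4. Thinned shares of cells with a Prph UMI were 15.0% in PN6-like and 10.4% in PN1-like cells (59.9% and 34.8% unthinned), against 0.288% in microglia-like cells (0.797% unthinned).

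**Figure D2:**
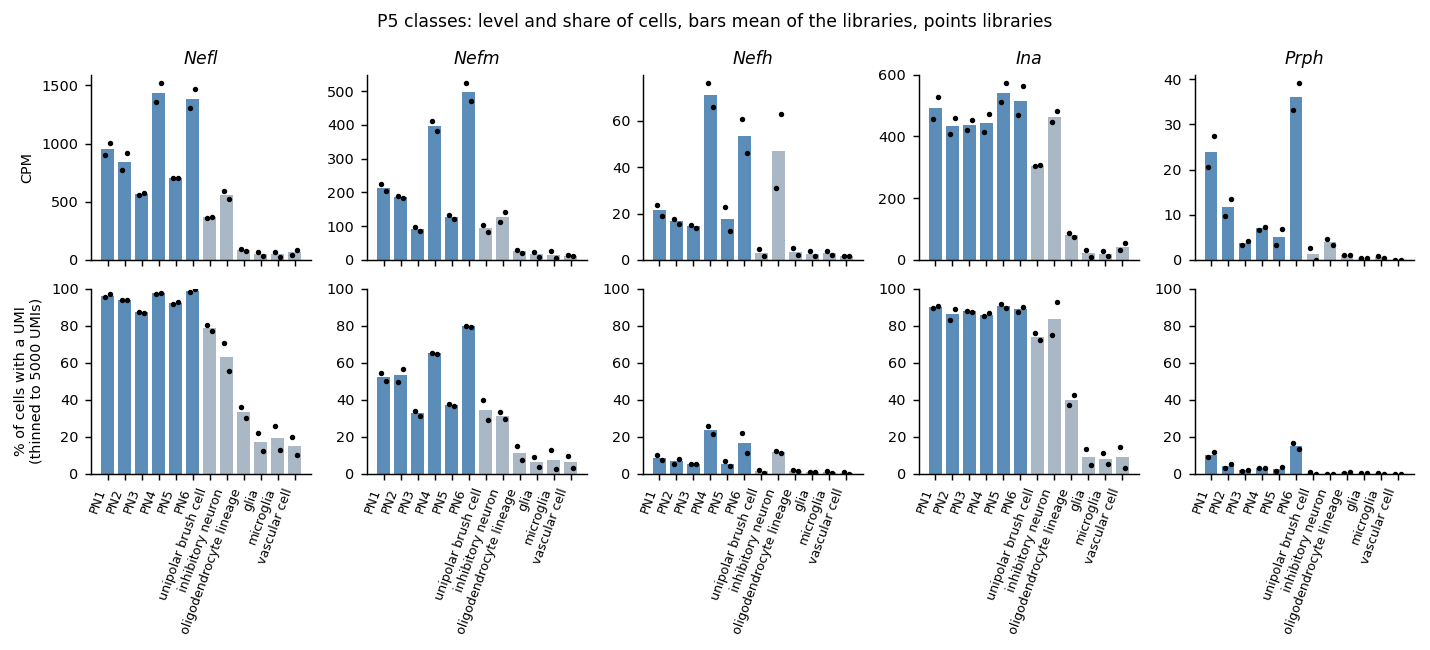
Levels (CPM) and percent of thinned cells with a UMI of each filament gene by cell class at P5, bars at the mean of the 2 libraries and points for each library. PN4-like and PN6-like cells lead for Nefl, Nefm and Nefh, while Prph is led by PN6-like and PN1-like cells.

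Outside the pontine lineage, the highest levels belonged to small neuron clusters of E14.5. An unnamed cluster led by Calb2, Tbr1 and Lmx1a (cluster 18) held Nefl at 5991, 5416 and 4626 CPM in controls 1 to 3, Nefm at 2050, 2902 and 1560 CPM, and Ina at 2672, 3469 and 2350 CPM. Nefl and Nefm were themselves among its leading genes. Of its thinned cells, 99.8% had a UMI of Nefl, and 97.0% had Nefl, Nefm and Ina together. Next for Nefl was an unnamed cluster led by Hoxb3os, Ren1 and Zfp503 (cluster 16), at 1684, 1601 and 1709 CPM. An unnamed cluster with Atoh7 and Cryba2 among its leading genes (cluster 24), at 1570, 1480 and 1284 CPM, and P5 PN4-like cells followed, and their ranges overlapped. The lowest mean was in E18.5 glia-like cells, at 11.8 CPM. The heavy chain had another order. In the embryo Nefh was highest in an unnamed cluster led by Kcnip2, Sncg and Sox7 (cluster 32), at 21.3, 25.6 and 18.6 CPM, and next in one led by C1ql1, Tcf24 and Dlk1 (cluster 13), at 11.5, 10.3 and 14.9 CPM. It was at most 2.08 CPM in cluster 18, where its partners peaked.

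Prph UMIs in the E14.5 hindbrain came mostly from few cells. Cells with 10 or more Prph UMIs numbered 8, 42 and 16 in controls 1 to 3 and 12, 96 and 22 in the mutants, 196 of 34425 in all. They held 52.4% to 72.9% of the Prph UMIs of their library. Most of the 196 lay in few clusters: 109 in the largest of the Pax5 Zfhx3 rostral neuron clusters, where Prph was itself a leading gene, 38 in cluster 13 and 25 among inhibitory neuron-like cells. Mutant 2 alone gave 96 of the 196, with 66 of the 109 and 21 of the 38. Without it 100 cells were left, of which 43 were in the rostral neuron cluster, 17 in cluster 13 and 23 among inhibitory neuron-like cells. Control 1 had no such cell in the rostral neuron cluster, and mutant 1 had 3. The single highest cell had 302 Prph UMIs. No cell of the 31819 at E18.5 reached 10 Prph UMIs, and at P5 7 of 14006 did, with 0.649% to 4.16% of the Prph UMIs of their library.

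Peripherin is known from cranial motor and sensory neurons, and genes that mark motor neurons were counted in these cells. Of the 196 E14.5 cells, Slc5a7, the choline transporter, had a UMI in 42, against 8.67% to 11.9% of the other cells per library. Isl1, a motor neuron transcription factor, had one in 26, against 1.60% to 4.52% of the others. The vesicular acetylcholine transporter Slc18a3 had one in 24, against 1.22% to 2.98%, and Chat, which makes acetylcholine, in 12, against 0.278% to 1.08%. The libraries differed: in control 1, 6 of 8 cells had Isl1 and 5 had Slc18a3, while in mutant 2 these numbers were 2 and 3 of 96. Without mutant 2, Slc5a7 was seen in 29 of the 100 cells left, Isl1 in 24, Slc18a3 in 21 and Chat in 11. The median depth was 16500 to 31908 UMIs for these cells and 16945 to 20922 for the others, and shares were not thinned to 1 depth. At P5 all 7 cells had Slc18a3, beside 18.1% to 19.8% of the remaining P5 cells, 6 had Slc5a7, beside 42.0% to 46.1%, and none had Isl1. The 7 cells were deeper than the rest, with a median of 27824 to 65462 UMIs against 19069 to 20770. They were PN1-like (4) and PN6-like (3) neurons, and Slc18a3 was among the leading genes of the cluster that held the 4. The remaining P5 cells include other neurons and glia-like and microglia-like cells, so class and depth both differ in this comparison.

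**Figure D3:**
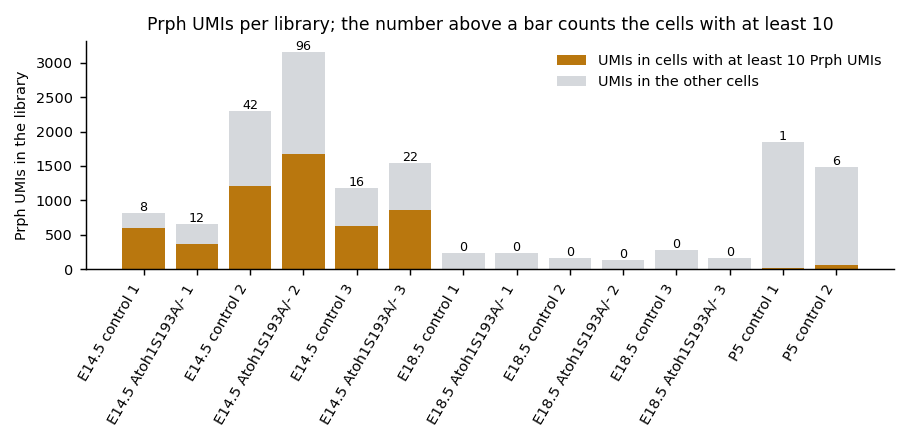
Prph UMIs per library, split into those from cells with 10 or more Prph UMIs and those from all other cells, with the number of such cells above each bar. At E14.5 the few high cells supply 52.4% or more of the Prph UMIs, and E18.5 has none.

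Over 41 named classes of the 3 stages (mean of control libraries, log2(CPM + 1)), Nefl and Nefm were the pair most alike, with r = 0.93, although their annotated spans overlap. Ina had r = 0.87 with Nefm and 0.83 with Nefl. Nefh had r = 0.62 with Nefl and 0.24 with Ina, and Prph did not pass 0.47 with any member. These classes share libraries and parent cells, and the values are descriptions. Among 7919 other genes, those most like Nefl were Gng3 (r = 0.94), Stmn3, Rusc1, Mgst3 and Uchl1 (0.91 to 0.92). Among the 5 most like Nefm were Smim18 (0.88), Cnih2, Ap2m1 and Gng3. For Ina they were Add2 (0.96), Pafah1b3, Actl6b, Tuba1a and Tagln3. Among the 5 most like Nefh were Amn (0.93), Gabra5, Thy1 and Cdkl2. The gene most like Prph was Slc18a3, at a lower r of 0.75, then Eef1akmt1, Hspbp1, Tcerg1l and Vstm2l.

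In all sorted control cells together, Nefl, Nefm and Ina fell from E14.5 to E18.5. Nefl was at 609, 784 and 628 CPM at E14.5 and at 256, 225 and 298 CPM at E18.5 (log2 -1.46 ± 0.15, adjusted p = 0.000633). Ina was at 1114, 1800 and 1207 CPM and then at 483, 443 and 561 CPM (log2 -1.55 ± 0.20, adjusted p = 0.00119). Nefm fell less, being at 286, 461 and 284 CPM and then at 226, 201.0 and 236 CPM (log2 -0.72 ± 0.20, adjusted p = 0.0192). None of the 3 overlapped between stages. In this comparison 51.6% of 10291 genes were called, 25.1% lower. Sums over a whole sort mix classes whose shares differ, so fewer cells of a type and less RNA per cell cannot be told apart. Of the filament partners 5 of 22 rose and 6 fell (median log2 change 0.06), with Nes, the progenitor filament gene, down by 1.24 ± 0.10. Vim fell by 0.81 ± 0.19, and 2 kinase genes, Mapk3 and Cdk5, fell by 0.79 ± 0.07 and 0.63 ± 0.08. Lmnb1 rose by 0.65 ± 0.11. Of the maturation genes, 3 of 7 fell and Rbfox3 rose by 1.30 ± 0.06.

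The call for Nefm was lost without E18.5 control 1 (log2 -0.72) and without E18.5 control 2 (log2 -0.67). Without the 10% filter, Prph (10.3 to 19.6 CPM at E14.5 and 2.20 to 3.23 CPM at E18.5) fell by 2.56 on the log2 scale in controls (edgeR, adjusted p = 1.56e-05). Nefh fell by 0.95 (adjusted p = 0.0124), and 7921 of 24934 genes were called in that fit. In the mutants Nefl fell from 356, 662 and 372 CPM to 212, 231 and 315 CPM (log2 -0.92 ± 0.26, adjusted p = 0.0373). Ina fell from 760, 1564 and 833 CPM to 438, 450 and 627 CPM (log2 -1.10 ± 0.29, adjusted p = 0.0279). Nefm was at 161, 368 and 172 CPM and then at 192, 225 and 294 CPM, overlapping, with a log2 change of -0.02 ± 0.33. In the mutants 33.1% of 10446 genes were called, 16.7% lower. Both calls were lost without E18.5 mutant 1 and without E18.5 mutant 2, and that of Nefl without E14.5 mutant 3.

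The genotypes differed at E14.5 within each litter. In the first litter Nefl was at 609 CPM in the control and 356 in the mutant, in the second at 784 and 662, and in the third at 628 and 372. The mutant was thus lower in 3 of 3 litters, at 0.585, 0.844 and 0.592 of its littermate, while the genotypes overlapped across litters. Nefm was at 0.562, 0.799 and 0.605 of the control littermate and Ina at 0.683, 0.869 and 0.690. The second litter had the highest levels of both genotypes and the smallest difference. Both libraries of the third litter name the same Cell Ranger version.

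Without regard to litter, no member was called at E14.5, and 0.00976% of 10241 genes were (edgeR, 1215 genes at an unadjusted p below 0.05, while DESeq2 called 250 genes and no member). The log2 changes were -0.58 ± 0.24 for Nefl, -0.60 ± 0.35 for Nefm and -0.42 ± 0.30 for Ina. Without mutant 2 they were -0.90, -1.06 and -0.80, and without control 2 they were -0.45, -0.32 and -0.18. With the litter (replicate number) as a block in the same model they were -0.62 ± 0.10 (adjusted p = 0.0114), -0.65 ± 0.09 (adjusted p = 0.00739) and -0.46 ± 0.07 (adjusted p = 0.0105), and all 3 were called. That fit called 17.6% of the genes, 7.24% lower. Of the 7 maturation genes tested, 7 were lower with the block, from -0.32 ± 0.05 for Rbfox3 to -0.50 ± 0.05 for Tubb3, and whether the members moved apart from them was not tested. Among 22 filament partners tested 2 rose and 3 fell, with a median of -0.06. Nes rose by 0.78 ± 0.06 and Plec by 0.40 ± 0.08, while the kinesin genes Kif5c and Kif5a fell by 0.30 ± 0.06 and 0.25 ± 0.07 and Cdk5r1, the activator of Cdk5, fell by 0.29 ± 0.05.

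At E18.5 no such difference was found. Nefl was at 256, 225 and 298 CPM in controls and at 212, 231 and 315 CPM in mutants, and Nefm and Ina overlapped as fully. The log2 changes were -0.05 ± 0.18, 0.09 ± 0.16 and 0.01 ± 0.17, with 0 of 9883 genes called (edgeR, 115 at an unadjusted p below 0.05, while DESeq2 called 13). With the litter block, which called 0.253% of the genes, they were -0.07, 0.07 and 0.00, with an interval of ± 2 SE that ran from -0.20 to 0.06 for Nefl. Whether the genotype difference itself changed with stage was tested as an interaction term. That term was 0.53 ± 0.33 for Nefl, 0.69 ± 0.43 for Nefm and 0.44 ± 0.38 for Ina without the block (edgeR, 0 genes called, 796 at an unadjusted p below 0.05, while DESeq2 called 71). With the block it was 0.57 ± 0.14 (adjusted p = 0.0318), 0.73 ± 0.15 (adjusted p = 0.0195) and 0.47 ± 0.10 (adjusted p = 0.0206), and 14.6% of the genes were called, 5.94% with a positive term.

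**Figure D4:**
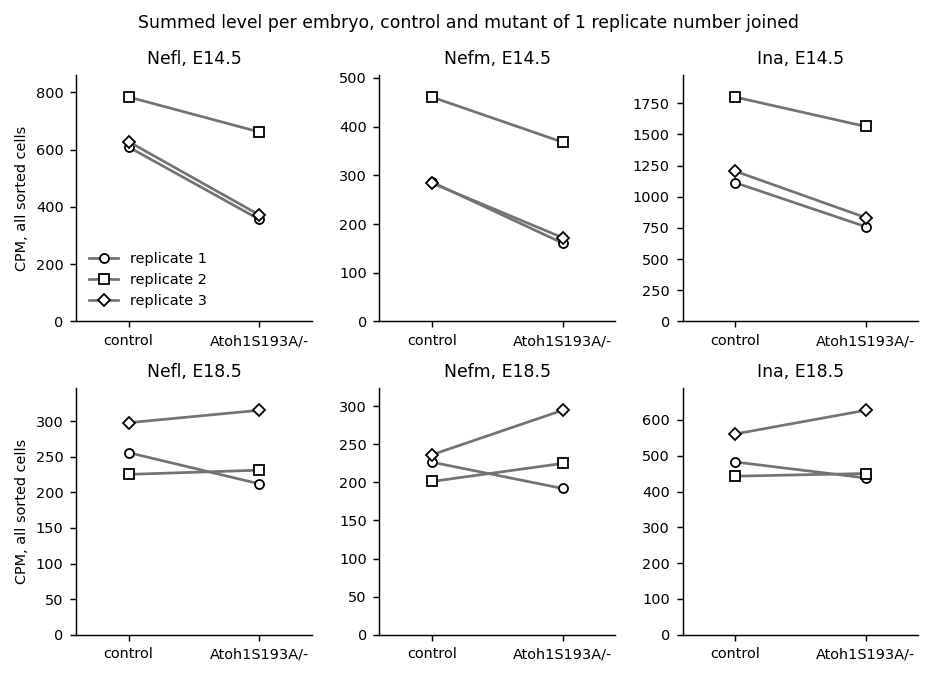
Levels (CPM) of Nefl, Nefm and Ina in all sorted cells of each embryo at E14.5 and E18.5, with lines joining control and Atoh1S193A/- libraries of the same replicate number. All lines fall at E14.5, and at E18.5 they run both ways.

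Within PN-like cells the same genes were lower in the mutants at E14.5. Fits to the summed PN-like cells were added after the data had been seen. Nefl was at 317, 377 and 431 CPM in controls and 238, 354 and 219 CPM in mutants, which overlap. Ina was at 1284, 1687 and 1502 CPM in controls and at 886, 1235 and 862 CPM in mutants, with no overlap. With the block, Nefl (-0.53 ± 0.15, adjusted p = 0.0304), Nefm (-0.49 ± 0.12, adjusted p = 0.0185) and Ina (-0.63 ± 0.08, adjusted p = 0.00161) were called, beside 26.1% of 10108 genes, 11.8% lower. All 7 maturation genes tested were called lower in the same fit (median log2 change -0.55). Without the block 7.99% of the genes were called in edgeR and no member was. DESeq2 without the block called Ina (-0.64 ± 0.17, adjusted p = 0.00277), beside 1403 of 10105 genes. The scarce members were kept out of this fit by the 10% filter. Prph was at 3.41, 2.24 and 3.03 CPM in controls and at 4.06, 5.35 and 4.35 CPM in mutants, higher in 3 of 3 litters and without overlap, and was not called without the filter and the block (log2 0.62 ± 0.23, adjusted p = 0.169). In E18.5 PN-like cells Nefh was at 1.16, 2.17 and 2.39 CPM and at 2.36, 3.03 and 2.82 CPM, higher in 3 of 3 litters but overlapping, and was not called either (log2 0.44 ± 0.32, adjusted p = 0.946). Shares of the states moved with genotype, a difference that was not tested here: progenitor-like cells made up 7.65%, 10.7% and 5.12% of the PN-like cells in controls and 26.1%, 31.3% and 27.7% in mutants. When each mutant was given the shares of UMIs that its control littermate had in each state, its log2 difference in Nefl went from -0.39, -0.13 and -0.98 to -0.03, 0.40 and -0.26. The difference in Ina went from -0.52, -0.46 and -0.79 to -0.16, 0.07 and -0.05. That in Prph went from 0.23, 1.21 and 0.57 to -0.54, 0.38 and -0.27, which turns 2 of 3 litters the other way. Over all sorted cells the same step took Nefl from -0.77, -0.26 and -0.75 to -0.13, -0.02 and 0.01, and Nefm from -0.83, -0.33 and -0.72 to -0.29, -0.14 and -0.09.

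State by state, calls at E14.5 were few. In differentiated neuron-like cells Nefl was at 488, 773 and 589 CPM in controls and 528, 996 and 513 CPM in mutants. With the block the log2 changes there were 0.05 ± 0.09 for Nefl, 0.04 ± 0.08 for Nefm and -0.07 ± 0.06 for Ina, none called, beside 0.0203% of 9842 genes. In intermediate progenitor-like cells, with 21 to 143 cells per library, Ina was at 24.8, 45.0 and 63.5 CPM in controls and at 22.0, 31.9 and 28.1 CPM in mutants. Nefm was at 23.5, 15.9 and 15.5 CPM and at 11.4, 9.32 and 12.4 CPM there, without overlap. Both were lower in 3 of 3 litters, and with the block their log2 changes were -0.70 ± 0.25 (adjusted p = 0.455) and -0.73 ± 0.35 (adjusted p = 0.710). Nefl changed by -0.39 ± 0.30, and no member was called in this state, where 0.383% of 9135 genes were. In a clustering that did not balance litters, the change of Nefm in this state was 0.034 without the block. The calls among the 5 states lay in cells named migrating neuron-1-like. Their larger subcluster (886 cells) scored 1.78 for that name and 1.77 for intermediate progenitor-like, nearly a tie. At Leiden resolution 2.0 a cluster of 696 cells was named intermediate progenitor-like, and Hsd11b2, Gm17322 and Nkd1 were among the leading genes of both. In the migrating neuron-1-like cells Nefl was at 33.2, 51.2 and 57.6 CPM in controls and at 29.3, 33.6 and 27.5 CPM in mutants. It was lower in 3 of 3 litters, though the lowest control fell among the mutants. Ina was lower in 2 of 3 litters, at 0.673 to 1.01 of the control littermate. With 1 library left out and no block, the change of Ina ran from -0.76 to -0.05. The block gave -0.69 ± 0.15 for Nefl (adjusted p = 0.0210) and -0.41 ± 0.10 for Ina (adjusted p = 0.0349), beside 2.11% of 9296 genes and 2 of 7 maturation genes, both lower. Without the block neither Nefl nor Ina was called (edgeR, 0 genes called and 454 at an unadjusted p below 0.05, while DESeq2 called 22). The differences in glia-like cells, taken as background, are given below. At E18.5, no member was called in migrating neuron-like or ePN1- to ePN3-like cells with or without the block.

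**Figure D5:**
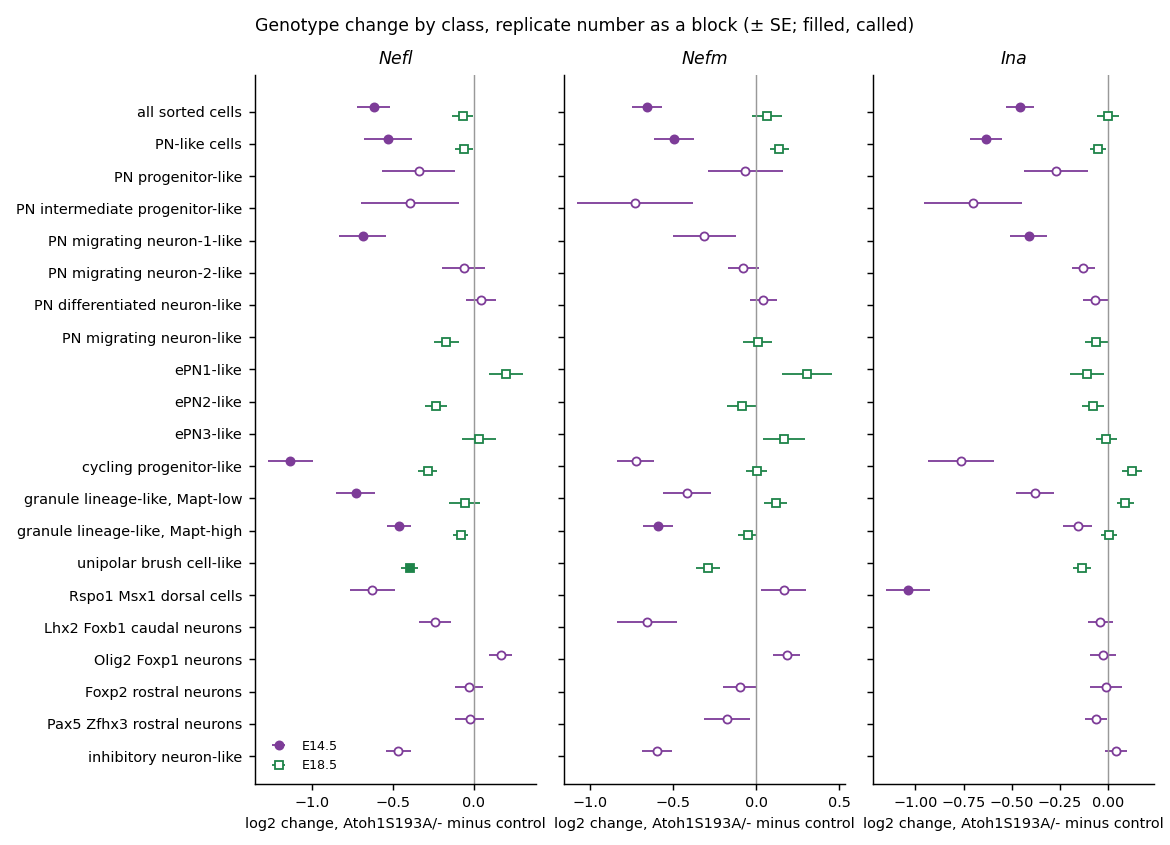
Log2 change of Nefl, Nefm and Ina in Atoh1S193A/- against control by cell class, with the litter as a block, bars giving ± SE, circles for E14.5, squares for E18.5 and filled symbols for called values. Called values lie below 0, and the differentiated neuron-like cells of E14.5 sit near 0 for each gene.

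The 15 fits to other named classes were made in edgeR with the filter on the share of cells. No member was called in these fits without the block, while 6 calls were made with it, all lower in the mutant. In E14.5 cycling progenitor-like cells Nefl was at 89.4, 142 and 97.3 CPM in controls and at 42.9, 49.0 and 57.3 CPM in mutants, without overlap (-1.14 ± 0.14, adjusted p = 0.0400, 0.363% of genes called). None of 7 maturation genes was called there, at a median of -0.72. DESeq2 called Nefl there without the block, beside 46 of 10468 genes. In the Rspo1 Msx1 dorsal cells Ina was at 41.1, 75.5 and 47.0 CPM and at 23.1, 33.4 and 22.6 CPM, again without overlap (-1.04 ± 0.11, adjusted p = 0.00148, 0.869% called). There 5 of 6 maturation genes were called lower too, with a median of -0.96. Granule lineage-like cells with low Mapt had Nefl at 116, 569 and 142 CPM and at 56.3, 462 and 81.1 CPM, where the second litter stands far above the others in both genotypes (-0.73, adjusted p = 0.0339, 1.28% called), and 3 of 7 maturation genes were called lower (median -0.45). Whether the members moved apart from the maturation genes was not tested in these classes. The Ina levels of the dorsal cells lie far below those of all sorted cells. In E14.5 glia-like cells, the background used above, mean log2 differences within litters were -0.74 for Nefl, -0.54 for Nefm and -0.47 for Ina. Each was lower in 2 of 3 litters and none was called, and whether the low-level calls differ from this background was not tested. In the low-Mapt granule lineage-like cells, the change of Nefl in the fit with no block turned to 0.59 without E14.5 control 2. Granule lineage-like cells with high Mapt were found in both genotypes of only 2 litters, so that the blocked comparison rests on 2 pairs. Mutants were lower there in Nefl (-0.46, adjusted p = 0.00458) and Nefm (-0.59, adjusted p = 0.0029), with 1.15% called. That high-Mapt class was a single cluster (1334 cells) with Eomes among its leading genes. It scored 1.24 for unipolar brush cell-like and 0.89 for granule lineage-like. The granule name came from a further rule on the shares of cells with granule markers.

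The E18.5 call fell in unipolar brush cell-like cells, excitatory interneurons of the cerebellum. Nefl was at 252, 228 and 248.6 CPM in controls and at 197, 171 and 189 CPM in mutants, so that each mutant lay below each control. The log2 change was -0.40 ± 0.05 with the block (adjusted p = 0.000438, 1.1% of genes called) and -0.40 ± 0.07 without it (adjusted p = 0.172). DESeq2 without the block called Nefl too, beside 25 of 8851 genes. Unnamed clusters of both stages were also fitted, after the data had been seen, and cluster 13, where members were called, is the one described. In cluster 13 of E14.5, Nefl was at 377, 470 and 471 CPM in controls and at 252, 358 and 299 CPM in mutants (-0.55 with the block, adjusted p = 0.00123). Nefm was at 171, 223 and 240 CPM and at 60.3, 185 and 91.5 CPM (-0.91, adjusted p = 0.00388), beside 0.206% of 9729 genes called. Ina differed by -0.01 in the same cells.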

How the data were processed

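The authors deposited UMI counts per gene and cell barcode, made with Cell Ranger (v5.0.1 in the study's methods and in 12 of 14 file headers, 3.1.0 in 2) on mm10 with a WPRE sequence added and default parameters. These counts were used as deposited, with no normalization. Scrublet's top 7.5% per library were removed as doublets. Cells were clustered per stage (scanpy 1.11.5, Leiden resolution 1.0, 2000 variable genes, 30 components) without the filament genes and partners, and named from the study's markers. UMIs were summed per library and class with at least 10 cells and tested with edgeR 4.0.16 (quasi-likelihood, TMM, R 4.3.3), over genes with a UMI in 10% of the cells of a group, with Benjamini-Hochberg adjustment. Depth per library is given in the report, and shares of cells carry counting error only. The study's cell-level test was not used, since cells of 1 embryo are not replicates.

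Replicate numbers were read as litters, since each mutant was collected with a littermate control and deviations of same-numbered libraries from their group means correlated at 0.504 to 0.820 (E14.5) and 0.787 to 0.928 (E18.5). The fit with the number as a block is therefore given beside results whose call it changes. On simulated data the test recovered 86% of 2-fold changes at E14.5 (genotype, 10241 genes) and 96% at E18.5 (9883 genes). It also called 10 and 17 unchanged genes there. The simulated libraries had no litter effect and were fitted without the block, so these figures do not cover the blocked fits or changes under 2-fold. Named genes were the members, the 5 genes most like each, and at most 5 called list genes per comparison; some of these are not reported here. Members and lists were chosen with earlier results of these data known. Genotype fits to the summed PN-like cells, the summed ePN-like cells and the unnamed clusters were added after the data had been seen. Alternatives were DESeq2 1.42.0, no filter, mitochondrial and doublet limits, the clustering resolution, the Cell Ranger version and leaving out each library.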

Additional observations from a re-analysis of the deposited data

Results flagged for a closer look

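In all sorted cells the genotype difference changed between E14.5 and E18.5 for 3 members, by a test of the difference itself with the litter as a block. The interaction (E18.5 minus E14.5, log2) was 0.566 for Nefl, 0.731 for Nefm and 0.47 for Ina. In each case the mutant was lower in 3 of 3 litters at E14.5, and the E18.5 litters went both ways. Without the block none of the 3 was called. Neuron maturation genes moved alike, with 7 of 7 tested called higher in the same interaction, and 14.6% of all genes were called.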

How the results depend on the processing

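With the replicate block, member calls in all sorted cells went from 0 to 3 at E14.5 and from 0 to 3 in the interaction, from 0 to 2 over the E14.5 PN-like states and from 0 to 6 over the 15 other classes. They also went from 0 to 3 in the summed E14.5 PN-like cells and from 0 to 2 in cluster 13, and the block changed no other member call. Without the 10% filter they went from 3 to 5 (control, E18.5 against E14.5), where 7921 of 24934 genes were called. They went from 2 to 4 in differentiated neurons, beside 7677 of 20572 genes. Over the E14.5 states they went from 0 to 1, with 1 to 119 genes called per fit. Over the other classes they went from 0 to 4, with 0 to 218 genes called per fit. DESeq2 gave 2 there, with 0 to 141 genes called per fit. Leaving out 1 library gave 0 to 2 calls in the mutant stage comparison, 0 without E18.5 mutant 1 or 2 and 1 without E14.5 mutant 3. None of the values that changed sign below was called in edgeR with all libraries and no block. In E18.5 genotype over all sorted cells, leaving out 1 library gave -0.24 to 0.070 for Nefl, -0.10 to 0.23 for Nefm and -0.17 to 0.12 for Ina. In the mutant stage comparison Nefm ranged from -0.21 to 0.44, and was 0.00399 without the filter. In E14.5 differentiated neuron-like cells the ranges were -0.30 to 0.30 for Nefl, -0.34 to 0.36 for Nefm and -0.34 to 0.16 for Ina. There, Nefl and Nefm were -0.071 and -0.19 at Leiden resolution 2.0 and -0.35 and -0.14 when clustered without balancing litters (chosen after seeing the data). Ina was 0.20 there in Cell Ranger 5.0.1 libraries, which leave 1 control. In E14.5 intermediate progenitor-like cells Nefl ranged from -0.88 to 0.10, and Nefm was 0.034 when clustered without balancing litters. In the summed ePN-like cells of E18.5, Nefm was called higher in mutants without the filter (edgeR, 0.29, adjusted p = 0.0436) and not with it. Nefl in low-Mapt granule cells ranged from -2.03 to 0.59. The cause was not tested. Of 449 log2 changes recomputed, 394 kept direction and side of the threshold. Genes called at E14.5 (all sorted, 1) numbered 250 by DESeq2, 1800 with the block, 11 at a 10% mitochondrial limit and 0 with doublets kept. The E14.5 fit on Cell Ranger 5.0.1 libraries alone held 1 control, so its count is not given. At E18.5 (0) the genes called numbered 13 by DESeq2 and 25 with the block. In the interaction (0) they numbered 71 by DESeq2, 1533 with the block, 6 (mitochondrial limit) and 1 (doublets kept). Mutant stage calls (3455) ranged from 1656 to 4044 when 1 library was left out.

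Limits are few embryos per group, classes rebuilt from markers, a P5 set with no mutant and only 2 pooled libraries, and 3′ tags that read neither the S193A allele nor isoforms. Nefh and Prph were below the filter in most embryonic classes, and no genotype difference in them was called in edgeR without it.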

Other observations

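In E14.5 inhibitory neuron-like cells, which carry Gad2 and Slc32a1, Nefl was at 596, 566 and 584 CPM in controls and at 478, 423 and 391 CPM in mutants, and Nefm at 525, 550 and 403 CPM and at 398, 390 and 229 CPM. With the replicate block the log2 changes were -0.47 ± 0.08 and -0.60 ± 0.09, neither called in edgeR (adjusted p = 0.175 and 0.173). Ina differed by 0.04 ± 0.06 in the same cells. Prph in these cells spread over 64.3 to 151 CPM in controls and 8.14 to 88.2 CPM in mutants.

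In E14.5 Lhx2 Foxb1 caudal neurons Nefm had a log2 change of -0.66 ± 0.18 with the block (edgeR, adjusted p = 0.808), Nefl -0.24 ± 0.10 and Ina -0.04 ± 0.07, none called, with 0 genes called, 553 at an unadjusted p below 0.05, and 0 called by DESeq2 without the block.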
